A study of Mus musculus with 4 samples.

Results

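Chemokines are small secreted proteins that bind to the sugar chains of the vessel wall and the matrix and draw leukocytes along their gradient. Each leukocyte reads them through G protein-coupled receptors, so that the receptors a cell carries decide which chemokines it follows. In the infarcted heart, neutrophils enter first along the CXC chemokines that bear a glutamate-leucine-arginine (ELR) motif and signal through Cxcr2, monocytes follow along the Ccr2 ligands, and lymphocytes arrive later along the Cxcr3 and Ccr7 ligands. The chemokine and chemokine receptor genes were taken here by name, as every gene whose name on the array begins with Ccl, Cxcl, Ccr, Cxcr, Cx3cl, Cx3cr, Xcl or Xcr followed by a digit. They were 55 genes, 35 ligands and 20 receptors, of 27376 gene names on the array, and were carried by 71 of 41174 probes.

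The study asked how loss of the histone demethylase KDM5B alters the left ventricle after myocardial infarction. Left ventricles were taken 7 days after the left anterior descending coronary artery was tied off for good, from 2 KDM5B-knockout (KO) and 2 wild-type (WT) mice, all labelled male and aged 8 to 10 weeks, and their RNA was hybridized to 1-colour Agilent arrays. The KO mice carried a CRISPR/Cas9 deletion of the stretch of Kdm5b that encodes the catalytic JmjC domain, with a frameshift, not restricted to a cell type, and the WT mice were their littermate controls on the C57BL/6 background. Both groups had an infarct and no sham-operated heart was analysed here, so nothing below describes the response to infarction itself. The arrays are named WT 2, WT 3, KO 2 and KO 3 after the numbers in their titles.

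Levels are given as the log2 of the processed signal minus the 75th percentile of that array, so that a difference of 1 is a 2-fold difference, and they are compared between arrays for 1 gene and not between genes. The 75th percentile corresponded to a processed signal of 608 on KO 2, 876 on WT 2, 885 on KO 3 and 976 on WT 3, and 68.2% to 72.0% of the probes were well above background. The targeted gene Kdm5b read -0.87 and -1.81 on WT 2 and WT 3 and -2.40 and -2.26 on KO 2 and KO 3, lower on both KO arrays than on both WT arrays (KO minus WT -0.996). The sex-linked transcripts of the arrays followed the number in the title and not the genotype, with the female-specific RNA Xist high on WT 2 and KO 2, although the labels give all 4 mice as male. The number therefore stands for a difference between the samples in both groups, and each result is given for KO 2 against WT 2 (number 2) and for KO 3 against WT 3 (number 3) beside the mean. The labels give 2 replicates a group without saying how they were drawn, so the p-values measure the spread between these samples, and 2 arrays a group limit the precision of every difference.

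Of the 55 genes, 41 were tested, 28 ligands and 13 receptors, which means that WT 2 and WT 3, or KO 2 and KO 3, both measured them well above background. On all 4 arrays 37 of them were above background. The other 4, Ccl1, Cxcl13, Cxcr5 and Cxcr2, passed through WT alone and none passed through KO alone. The remaining 14 were not tested. Of these, Ccr1, Ccr4, Ccr8, Ccr10, Cxcr1, Ccl20, Ccl22, Cxcl15 and Cxcl17 were well above background on no array, and Cxcl2, Cxcl11, Ccl28, Ccr3 and Ccr1l1 on 1 or 2 arrays.

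Most chemokine and receptor genes had a lower mean in KO than in WT, and both the size and the direction of the difference depended on which pair of hearts was compared. No chemokine or receptor gene passed an adjusted p of 0.05 together with a 2-fold difference in limma, and the lowest adjusted p among them was 0.9999. None of the 18449 tested genes of the array passed either (0.0%). At an unadjusted limma p of 0.05, 3 of the 41 passed, Cxcl5, Ccl1 and Xcl1, against 1.59% of all tested genes. Of these, Ccl1 entered the test through WT alone, and its KO values, which this p rests on, were not above background. The KO mean was below the WT mean for 34 genes and above it for 7, where 47.4% of all tested genes were lower. The median difference over the 41 genes was -0.60, beside 0.02 over all tested genes. In whole ventricle, fewer cells of a type and less RNA per cell cannot be told apart.

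Within the numbers, the difference was large at number 2 and absent from the median at number 3. At number 2 the median of the 41 genes was -1.30, and 32 of them were more than 2-fold lower in KO, beside 9.73% of all tested genes. At number 3 the median was 0.12, and 7 genes were more than 2-fold lower, beside 1.93% of all tested genes, and 4 were more than 2-fold higher, beside 2.48%. At number 2, Cxcr7 alone was more than 2-fold higher, beside 6.77%. KO 2 was the lowest of the 4 arrays for 26 of the 41 genes, beside 41.2% of all tested genes. A total of 20 genes were lower at number 2 and higher at number 3, beside 27.3% of all tested genes. Lower at both numbers were 15, beside 21.3%, and 4 (Ccr6, Xcr1, Cxcr7 and Ccl25) were higher at both, beside 24.9%. For Ccl25 the differences were only 0.19 and 0.007, and a second probe was lower at both numbers (-0.15 and -0.21). With KO 2 left out, 22 genes were lower and 19 higher and the median difference was -0.06.

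**Figure D1:**
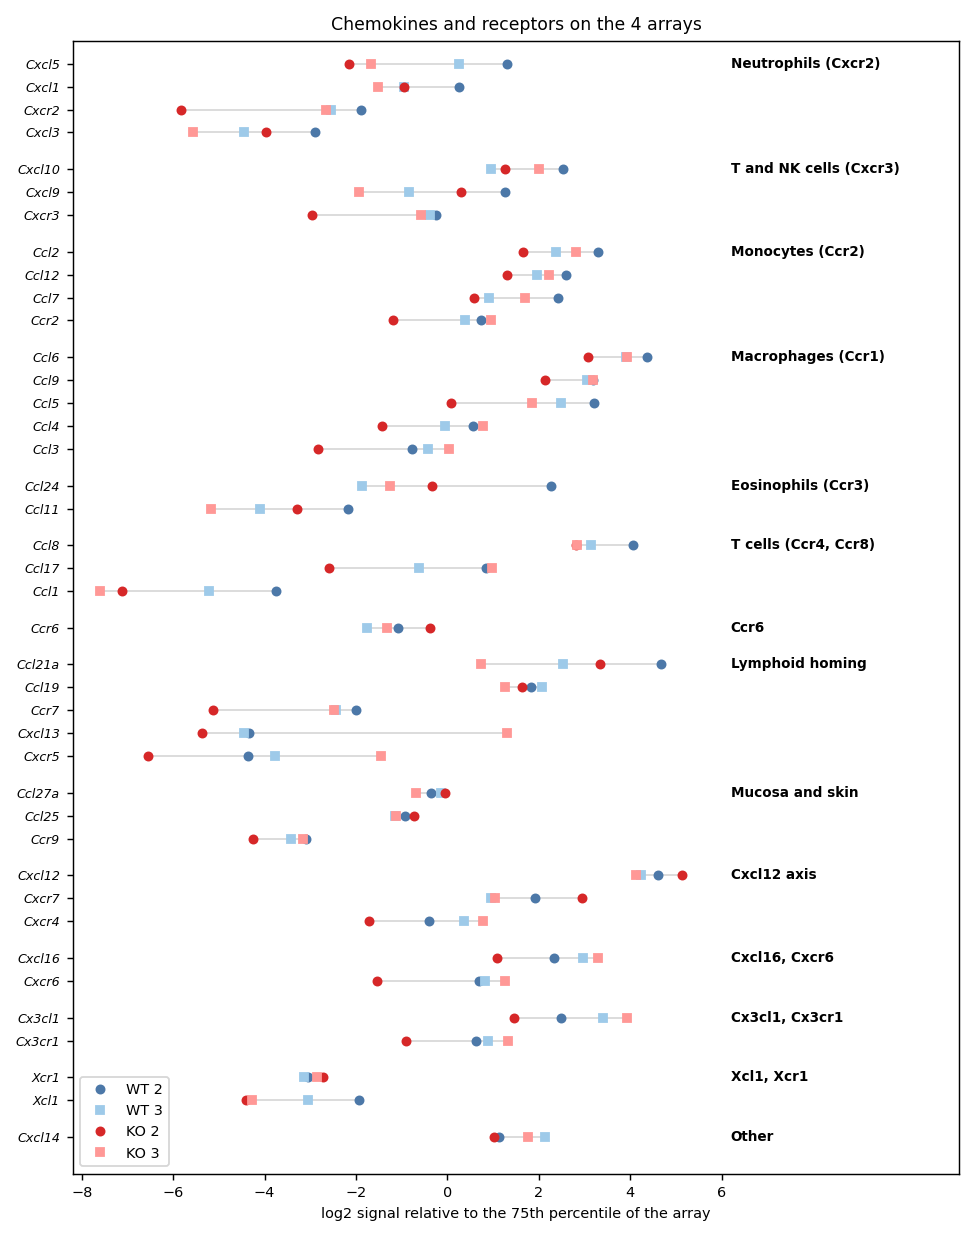
Level of 40 of the 41 tested chemokine and receptor genes on the 4 arrays, in log2 units against the array's own 75th percentile, ordered by the leukocyte attracted. Blue marks are WT and red marks KO, circles are number 2 and squares number 3, and grey lines join the lowest and the highest array of a gene. KO 2 is the lowest array for most of them, and Cxcl5 has both KO arrays well below both WT arrays.

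Cxcl5 was lower on both KO arrays than on both WT arrays. Cxcl5, also called LIX, is an ELR chemokine that epithelial and stromal cells secrete and that recruits neutrophils through Cxcr2. It read 1.31 on WT 2 and 0.26 on WT 3, and -2.15 on KO 2 and -1.67 on KO 3, which are processed signals of 2170, 1169, 137 and 279. The gap between the lower WT array and the higher KO array was 1.93 on the log2 scale, larger than the spread within WT (SD 0.74, n = 2) or within KO (SD 0.34, n = 2). The mean was 6.47-fold lower in KO (log2 difference -2.69, SE 0.47, 95% interval -4.02 to -1.36), and the limma p was 0.005 before adjustment and 0.9999 after adjustment over all tested probes. The difference was -3.46 at number 2 and -1.93 at number 3. Ordered from the lowest difference, Cxcl5 stood at place 22 of 18449 tested genes. Since Cxcl5 was singled out with earlier results of these data known, its rank, p and interval are descriptions and not independent support. Leaving out 1 array at a time gave differences from -3.22 to -2.17. With both KO arrays below both WT arrays, the sign of these differences was fixed beforehand.

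The genes most related to Cxcl5 lie beside it on mouse chromosome 5. The probes lie, in mm9, at chr5:91190205-91190264 for Cxcl5, chr5:91216694-91216753 for Cxcl3, chr5:91321845-91321904 for Cxcl1 and chr5:91334534-91334593 for Cxcl2. Whether a probe falls in an exon or an untranslated end was not determined here. The first 30 of the 60 bases of each probe are shown because close paralogs can share signal, and these stretches are plainly different from one another.

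Cxcl5: agacatttgatgtcttcgtagtatggcata

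Cxcl1: agaagtgcagagagatagagtttagtatta

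Cxcl3: ctaagtttaaccaagcctattcttaacttg

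Cxcl2: atagttggaaggtgatacatttttaaacct

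Over their full length, no pair of these 4 probes shared an unbroken run of more than 6 bases, and over the 1485 pairs of all 55 genes the longest shared run was 13 bases.

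The relatives of Cxcl5 were lower in KO too, by less. Cxcl1, also called KC, is the ELR chemokine that many cells release within hours of injury. It read 0.25 and -0.94 on WT 2 and WT 3 and -0.95 and -1.53 on KO 2 and KO 3, so WT 3 and KO 2 were almost level, with a gap of 0.006. Its KO minus WT difference was -0.89 (95% interval -2.38 to 0.60), with -1.19 at number 2 and -0.58 at number 3. Cxcl3, a close copy of Cxcl2, read -2.90 and -4.45 on the WT arrays and -3.97 and -5.57 on the KO arrays. For Cxcl3 the groups overlapped, since KO 2 was above WT 3, while each KO array was below the WT array of its number by -1.07 and -1.12. Cxcl2, also called MIP-2, was above background on WT 2 alone, at -4.34, and read -6.32, -5.79 and -6.66 on WT 3, KO 2 and KO 3. Cxcl15, called lungkine after the tissue that makes it, was above background on no array.

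Cxcr2, the receptor that neutrophils use for these ligands, differed by number. It read -1.89 and -2.54 on WT 2 and WT 3, -5.82 on KO 2, where it was not above background, and -2.66 on KO 3. Its measured difference was -3.93 at number 2, which rests on a KO 2 value in the background, and -0.12 at number 3, and a second Cxcr2 probe gave a mean difference of -1.99 beside -2.02 for the first. Cxcr1 was above background on no array. Set against its relatives, the Cxcl5 difference was below that of Cxcl1 by -1.80 (-2.26 at number 2 and -1.34 at number 3) and below that of Cxcl3 by -1.60 (-2.39 and -0.80). Against Cxcr2 it was lower by -1.81 for KO 3 with WT 3, and no value is given for KO 2, where Cxcr2 was not above background. These are differences between log2 differences, given as descriptions with no test. All 4 tested genes of the neutrophil class were lower in KO at both numbers, beside 21.3% of all tested genes. Of these, Cxcr2 entered the test through WT alone, a filter that favours a lower KO value. Cxcl5 was singled out with earlier results of these data known. With normexp background correction in place of the scanner's own, the Cxcl5 difference was -2.32, while that of Cxcl3 was -0.13, that of Cxcr2 was -0.78 and the median of the class went from -1.56 to -0.75.

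**Figure D2:**
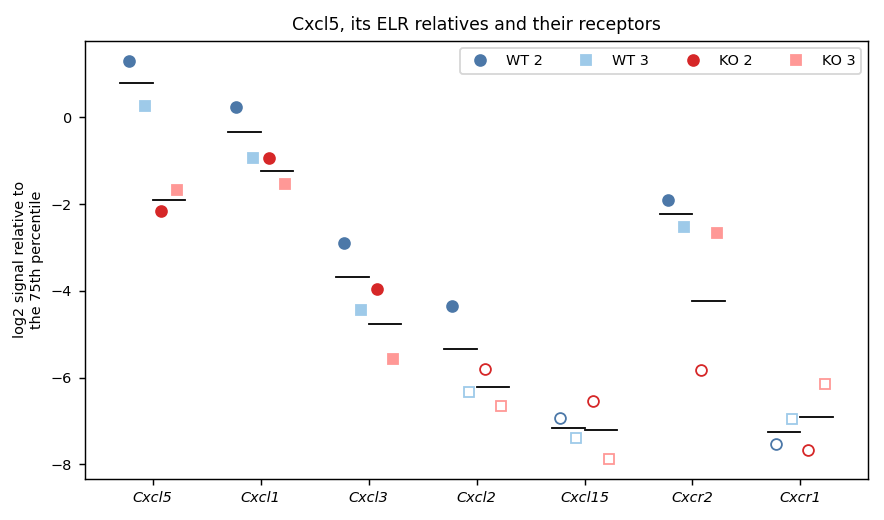
Level of the 7 genes of the neutrophil class on the WT and KO arrays, in log2 units against the array's own 75th percentile. Circles are number 2 and squares number 3, filled marks are well above background and open marks are not, and black lines are group means. Cxcl5 has a WT mean of 0.78 and a KO mean of -1.91, Cxcr2 is low on KO 2 alone, and Cxcl15 and Cxcr1 have open marks on all 4 arrays.

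The neighbours Ppbp and Pf4, CXC chemokines of platelets that lie between Cxcl5 and Cxcl3 and whose names fall outside the rule, were measured as well. Pf4 differed by 0.13 and Ppbp by 0.05, with overlapping groups for both. Of the cytokines and signalling genes that induce ELR chemokines, 10 of 14 were tested, 8 were lower and 2 higher, and none was called. Il1b, the cytokine interleukin-1 beta, was the only one of the 10 tested that differed by more than 1: it read 0.79 and -0.43 on the WT arrays and -1.22 and -1.20 on the KO arrays (KO minus WT -1.39). Of 11 neutrophil markers on the array, 8 were tested, all 8 were lower in KO in the mean and none was called. Mmp8 and Ltf entered the test through WT alone, and the elastase gene Elane was on no array above background. The 11 markers had a mean level of -2.49 and -1.75 on WT 2 and WT 3, -3.97 on KO 2 and -2.01 on KO 3. Their summed signal, relative to the 75th percentile, was 28.3, 34.4, 5.75 and 35.1. The calgranulin gene S100a8 read 2.16, 2.65, -0.37 and 2.76 on WT 2, WT 3, KO 2 and KO 3. The mean of the markers was lowest on KO 2 and lay between the WT arrays on KO 3. Mpo, the granule enzyme myeloperoxidase, was lower at both numbers (-1.71 and -0.78). Their part in the Cxcl5 and Cxcr2 differences was not tested.

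The promoters of Cxcl1, Cxcl2 and Cxcl3 are shown because these genes are the neighbours of Cxcl5 and signal through the same receptor. A search read the 250 bases before each start site, in the direction of the gene only, for the binding consensus of NF-kB. NF-kB is the transcription factor that inflammatory cytokines activate. Matches on the opposite strand were not searched for. The capitals mark the match. The sequences are RefSeq's for GRCm38.p6, at chr5:90890995-90891244 for Cxcl1, chr5:90903649-90903898 for Cxcl2 and chr5:90785851-90786100 for Cxcl3, all on the plus strand.

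Cxcl1: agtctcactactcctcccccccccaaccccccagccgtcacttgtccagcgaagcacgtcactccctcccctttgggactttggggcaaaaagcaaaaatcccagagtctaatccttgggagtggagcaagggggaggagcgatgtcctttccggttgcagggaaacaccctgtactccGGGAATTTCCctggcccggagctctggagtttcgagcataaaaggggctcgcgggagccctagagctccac

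Cxcl2: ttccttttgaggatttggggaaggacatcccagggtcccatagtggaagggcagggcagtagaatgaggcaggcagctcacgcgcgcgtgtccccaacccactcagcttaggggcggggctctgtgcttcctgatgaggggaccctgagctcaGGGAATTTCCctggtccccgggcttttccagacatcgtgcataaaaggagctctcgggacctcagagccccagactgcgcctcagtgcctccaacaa

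Cxcl3: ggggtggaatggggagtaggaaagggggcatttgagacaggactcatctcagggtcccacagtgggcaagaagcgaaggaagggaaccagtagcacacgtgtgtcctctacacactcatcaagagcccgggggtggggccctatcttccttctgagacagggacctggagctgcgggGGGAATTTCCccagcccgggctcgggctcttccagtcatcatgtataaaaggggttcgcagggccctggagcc

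The same 10 letters, GGGAATTTCC, stood 71 bases before the start of Cxcl1, 97 before that of Cxcl2 and 73 before that of Cxcl3. A match in the direction of the gene was found in 7 of the 45 promoters of the 41 chemokine and receptor genes with an entry (15.6%). They were those of Cxcl1, Cxcl2, Cxcl3, Cxcl10, Ccl1, Ccr1 and Ccr6. The share among 32851 mouse promoters, searched in the same way, was 4.995%. Cxcl15 had an entry without a match in the direction of the gene, and Cxcl5 had no entry. Of the genes with a match, Cxcl2 and Ccr1 were not tested, Cxcl1, Cxcl3 and Ccl1 were lower at both numbers, Cxcl10 was lower at number 2 and higher at number 3, and Ccr6 was higher at both.

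The Cxcr3 ligands, which interferon induces and which call activated T and NK cells, did not go one way as a group. Cxcl9 read 1.26 and -0.83 on WT 2 and WT 3 and 0.30 and -1.93 on KO 2 and KO 3, with each KO array below the WT array of its number by about 2-fold (-0.96 and -1.09) and the groups overlapping because WT 3 and KO 2 crossed. Cxcl10 read 2.53 and 0.96 on the WT arrays and 1.26 and 2.00 on the KO arrays, and its mean difference of -0.11 had a 95% interval from -2.01 to 1.79. Both ligands were thus spread as widely within WT as between genotypes. Their receptor Cxcr3, carried by activated T and NK cells, read -0.25 and -0.37 on the WT arrays, -2.97 on KO 2 and -0.58 on KO 3. Both KO arrays were below both WT arrays, by -2.72 at number 2 and -0.20 at number 3. Cxcl11 was above background on WT 2 alone. The positions of Cxcl9 and Cxcl10 are chr5:92752250-92752191 and chr5:92775840-92775781 in mm9, written from the 5′ to the 3′ end of a minus-strand probe.

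Most genes of the monocyte and macrophage classes, with Cxcl16 and Cxcr6 of NKT and tissue T cells, were lower at number 2 and higher at number 3. The Ccr2 class, Ccl3, Ccl4, Ccl5, Ccl6 and Ccl9, Cx3cl1 with Cx3cr1, and Cxcl16 with Cxcr6 made 13 tested genes. By the brightest probe of each gene, all 13 were more than 2-fold lower at number 2, from -3.12 to -1.04, and had KO 2 as the lowest array. At number 3, 12 of 13 were higher, and they ranged from -0.62 to 0.83. This split was not particular to these classes: the T cell chemokine Ccl17 had -3.44 at number 2 and 1.60 at number 3. Second probes of Ccl5, Ccl7, Ccr2 and Cxcl16 were also more than 2-fold lower at number 2. A second, dimmer Cx3cr1 probe was not: it gave -0.01 at number 2, 0.26 at number 3 and a mean difference of 0.13. The second Cx3cl1 probe was above background on no array. Ccl2, also called MCP-1, the main monocyte attractant of injured myocardium, read 3.30 and 2.38 on WT 2 and WT 3 and 1.66 and 2.81 on KO 2 and KO 3. Its difference was -1.63 at number 2 and 0.43 at number 3, and the groups overlapped. Ccl7 and Ccl12, the other mouse ligands of Ccr2, and Ccr2 itself had the same order of signs.

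Ccl6, a macrophage chemokine particular to rodents, read 4.36 and 3.90 on the WT arrays and 3.07 and 3.94 on the KO arrays, with a difference of -1.30 at number 2 and 0.04 at number 3. Cx3cl1, or fractalkine, which is anchored on endothelium and holds patrolling monocytes, read 2.48 and 3.41 on the WT arrays and 1.45 and 3.92 on the KO arrays. Cxcl16, a membrane-bound ligand that also takes up oxidized lipid, read 2.32 and 2.97 on the WT arrays and 1.08 and 3.29 on the KO arrays. In all of these, KO 2 was the lowest array and KO 3 was above WT 3. The 14 macrophage markers, of which 10 were lower, 4 higher and none called, had means of 2.33, 2.37, 1.78 and 2.78 on WT 2, WT 3, KO 2 and KO 3, with summed signals of 394, 428, 299 and 478. Their mean and summed signal were lowest on KO 2 and highest on KO 3, while KO 2 was the lowest array for 10 of the 14. Cd163, Timd4, Lyve1 and Ly6c2 were highest on KO 2. Only Cd163 and Timd4 differed by more than 1 in the mean, both higher in KO (1.05 and 2.26), and Timd4 entered the test through KO alone. The part of the macrophage markers in these differences was not tested.

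Ccl5 was the exception among them, and was lower in KO at both numbers. Ccl5, also called RANTES, is made mainly by activated T cells, NK cells and platelets and binds Ccr1 and Ccr3 among its receptors. It read 3.20 and 2.47 on WT 2 and WT 3, 0.07 on KO 2 and 1.85 on KO 3, so both KO arrays were below both WT arrays by at least 0.62 on the log2 scale. Its KO minus WT difference was -1.87 (SE 0.73, 95% interval -3.95 to 0.21), with -3.12 at number 2 and -0.62 at number 3. A second Ccl5 probe gave -1.97. Ccl5 lies on chromosome 11 at chr11:83339355-83339296, in a row with Ccl9, Ccl6, Ccl3 and Ccl4, which were all lower at number 2 and higher at number 3.

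**Figure D3:**
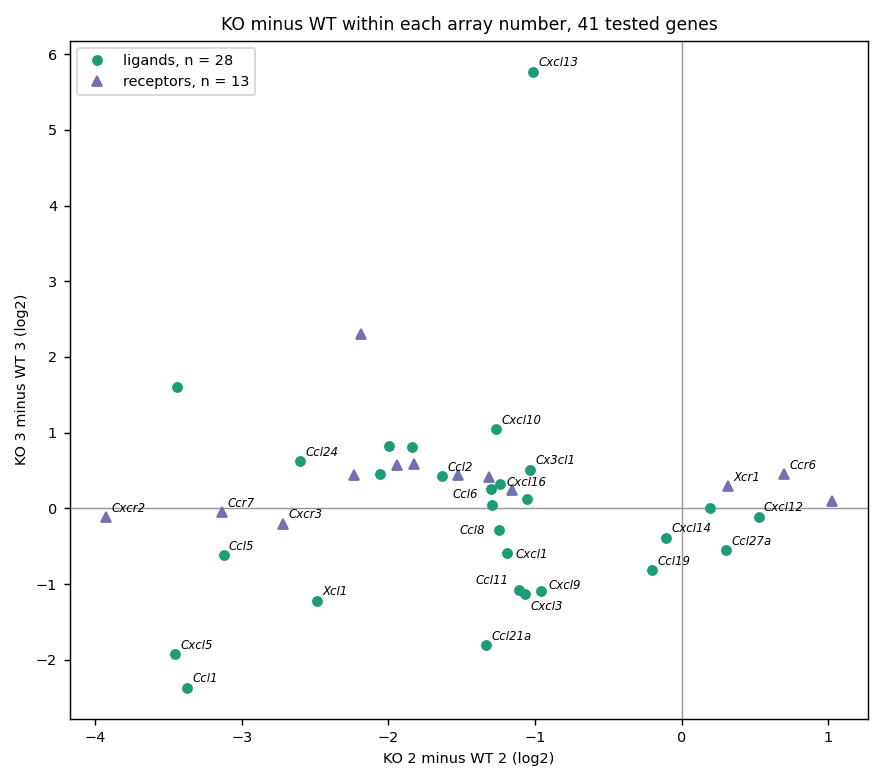
KO minus WT at number 2 (horizontal axis) against number 3 (vertical axis), in log2 units, for the 41 tested genes, with circles for the 28 ligands and triangles for the 13 receptors. Points left of the vertical line are lower in KO 2 than in WT 2 and points under the horizontal line lower in KO 3 than in WT 3. Cxcl5, Ccl1 and Xcl1 lie far to the lower left, most points lie left of 0 close to the horizontal line, and Cxcl13 stands alone at -1.02 and 5.77.

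Among the 41 genes, 6 were more than 2-fold lower at both numbers, beside 0.488% of all tested genes: Cxcl5, Cxcl3, Ccl1, Xcl1, Ccl11 and Ccl21a. All were ligands. For Ccl1 the size is not established, since its KO values were not above background. The count of genes with both KO arrays below both WT arrays was 10, beside 10.7% of all tested genes, and the count with both above was 1, beside 12.9%. The 10 were Cxcl5, Cxcl1, Cxcr2, Ccl5, Cxcr3, Ccl1, Ccl8, Xcl1, Ccl19 and Ccr7, and the 1 was Xcr1. By mean, 11 genes were more than 2-fold lower, beside 2.67% of all tested genes, and 1 was more than 2-fold higher, beside 1.13%. With normexp background correction, 4 genes were more than 2-fold lower and 6 had both KO arrays below both WT arrays. Among the dim genes, the difference of Xcl1 went to -0.74, that of Ccl11 to -0.24, that of Ccr7 to -0.62 and that of Ccl1 to -0.019. Leaving out 1 array moved the count of genes more than 2-fold lower to 7 without WT 2, 17 without WT 3 and 21 without KO 3.

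Ccl1, a ligand of Ccr8 on Th2 and regulatory T cells, was above background on both WT arrays, at -3.74 and -5.23, and on neither KO array, where it read -7.11 and -7.59. With the KO arrays set to the lowest signal that counted as above background, the difference came to 2.21-fold lower in KO. This is not a firm lower bound, since with normexp background correction the log2 difference was -0.019. On the measured values the limma adjusted p was 0.9999. Ccl8, also called MCP-2, a Ccr8 ligand in the mouse, read 4.06 and 3.13 on the WT arrays and 2.82 and 2.84 on the KO arrays. Its KO arrays agreed within 0.02 (SD 0.02, n = 2) and lay below both WT arrays, with a difference of -0.77 (95% interval -1.90 to 0.37). Ccl17, a ligand of Ccr4 on T helper 2 and regulatory T cells, went in opposite directions by number, -3.44 at number 2 and 1.60 at number 3.

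Ccl11 and Ccl24, the eotaxins 1 and 2 that call eosinophils through Ccr3, were set apart by WT 2. Ccl11 read -2.17 and -4.11 on WT 2 and WT 3 and -3.28 and -5.18 on KO 2 and KO 3, with differences of -1.11 and -1.07 and overlapping groups. Ccl24 read 2.27 on WT 2 and -1.88 on WT 3, and -0.33 and -1.25 on KO 2 and KO 3. The gap of 4.15 between the WT arrays was the widest of any tested chemokine gene and exceeded its KO minus WT difference of -0.99, which became 1.09 without WT 2. Of the 7 eosinophil and mast cell markers, 4 were tested, and 1 lower and 3 higher, none was called, their summed signal was between 0.94 and 1.31 on the 4 arrays, and the eosinophil peroxidase gene Epx was above background on no array.

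The genes of the chromosome 11 cluster that holds Ccl2 did not share a pattern. The probes of Ccl2 (chr11:81850650-81850709), Ccl7 and Ccl12 were lower at number 2 and higher at number 3. Those of Ccl11 (chr11:81876072-81876131), Ccl8 and Ccl1 (chr11:81990395-81990336), in the same stretch, were lower at both. Neighbours thus differed in sign at number 3.

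Xcl1, or lymphotactin, which NK cells and CD8 T cells secrete to call cross-presenting dendritic cells, was lower on both KO arrays. It read -1.93 and -3.06 on WT 2 and WT 3 and -4.42 and -4.28 on KO 2 and KO 3. The difference was -1.85 (SE 0.46, 95% interval -3.17 to -0.53), and the limma p was 0.018 before adjustment and 0.9999 after it. Its only receptor, Xcr1, went the other way by a small amount: it read -3.04 and -3.14 on the WT arrays and -2.72 and -2.85 on the KO arrays, a difference of 0.30 (95% interval -0.29 to 0.90). The NK cell markers had the same order. All 6 tested of 8 were lower in KO with both KO arrays below both WT arrays, beside 10.7% of all tested genes, and none was called. Klrk1, Gzma, Gzmb and Prf1 entered the test through WT alone, a filter that favours a lower KO value. Their KO 2 values were not above background. The 8 markers had a summed signal of 2.23 and 2.14 on the WT arrays and 0.29 and 1.36 on the KO arrays. Nkg7, a granule protein of NK and cytotoxic T cells, read 0.53 and 0.49 on the WT arrays and -2.87 and -0.20 on the KO arrays. The 12 T cell markers, of which 11 were tested, 10 lower and 1 higher, had summed signals of 3.73, 3.44, 0.65 and 3.84 on WT 2, WT 3, KO 2 and KO 3. Cd8a and Cd2 among them entered the test through WT alone. The 8 dendritic cell markers, of which 7 were tested and all 7 lower, had summed signals of 47.8, 32.2, 11.5 and 28.0. Clec9a, which marks the dendritic cells that carry Xcr1, read -4.51 and -5.09 on the WT arrays and -7.27 and -6.49 on the KO arrays, not well above background on either, and Cd209a was above background on no array. The part of these cells in the Xcl1, Ccl5 and Cxcr3 differences was not tested.

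**Figure D4:**
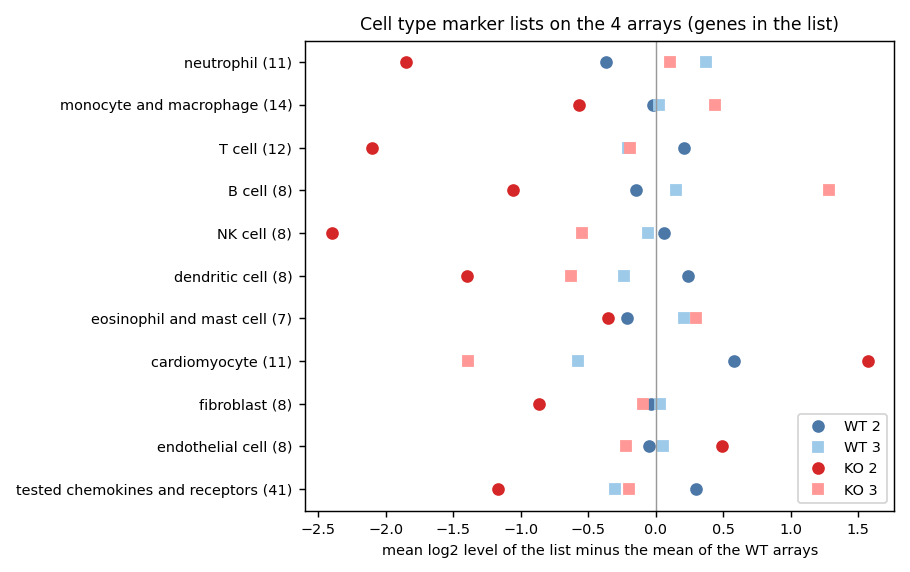
Mean level over the 41 tested chemokine and receptor genes and over each list of cell type markers on the 4 arrays, in log2 units relative to the mean of the WT arrays. Blue marks are WT and red marks KO, circles are number 2 and squares number 3. KO 2 stands lowest for the chemokine genes (-1.17) and for the NK, T cell and neutrophil markers, and highest for the cardiomyocyte markers.

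The chemokines of lymphoid tissue ranged from narrow to wide spread between the arrays. Ccl21a, which lymphatic endothelium makes to guide Ccr7-bearing dendritic cells and T cells, read 4.68 and 2.54 on WT 2 and WT 3 and 3.35 and 0.73 on KO 2 and KO 3. It was lower at both numbers (-1.33 and -1.81), the groups overlapped, and the value is uncertain because Ccl21b and Ccl21c are nearly identical copies. Ccl19, the other Ccr7 ligand, read 1.84 and 2.06 on the WT arrays and 1.63 and 1.25 on the KO arrays (KO minus WT -0.51, 95% interval -1.25 to 0.23). Ccr7 itself read -1.99 and -2.44 on the WT arrays, -5.13 on KO 2 and -2.49 on KO 3, so that it was lower at number 2 by -3.14 and nearly level at number 3 (-0.05).

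Cxcl13, which draws B cells through Cxcr5 into follicles, was high on a single array. It read -4.35, -4.46 and -5.37 on WT 2, WT 3 and KO 2 and 1.31 on KO 3, a processed signal of 2197 beside 42.9, 44.4 and 14.7. The mean difference of 2.38 had a 95% interval from -4.60 to 9.35, and it became -0.96 without KO 3. Cxcr5 was also highest on KO 3, at -1.46 beside -4.37, -3.77 and -6.56 on WT 2, WT 3 and KO 2. The 8 B cell markers, of which 7 were tested, 2 lower and 5 higher, had summed signals of 7.97, 15.9, 3.08 and 27.1 on WT 2, WT 3, KO 2 and KO 3. Their summed signal too was highest on KO 3. Blnk, the brightest of them, read 2.67, 3.77, 1.23 and 4.33 on WT 2, WT 3, KO 2 and KO 3, and makes up most of that sum. Cr2 was highest on KO 2, and Pax5 was above background on no array. The part of these markers in the Cxcl13 level was not tested.

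A last group of genes was close to level or higher in KO. Cxcl12, or SDF-1, the retention signal that stroma and endothelium make for Cxcr4-bearing cells, read 4.60 and 4.23 on WT 2 and WT 3 and 5.13 and 4.13 on KO 2 and KO 3. Its difference of 0.21 (95% interval -1.04 to 1.46) had the opposite sign on a second probe (-0.62). Its receptors also went in opposite directions at number 2, with the scavenging receptor Cxcr7, now named Ackr3, at 1.03 and the signalling receptor Cxcr4 at -1.31. A second Cxcr4 probe gave -0.36 at number 2 and a mean difference of -0.04. Ccr6, the receptor of Th17 and B cells for Ccl20, read -1.08 and -1.76 on the WT arrays and -0.38 and -1.31 on the KO arrays, higher at both numbers (0.70 and 0.45). Ccl27a, a chemokine of skin, read -0.36 and -0.13 on the WT arrays and -0.06 and -0.69 on the KO arrays. Cxcl14, a chemokine of epithelium and fibroblasts, read 1.14 and 2.14 on the WT arrays and 1.03 and 1.76 on the KO arrays. None of these differed beyond the spread within a group.

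Ligands and receptors had similar means and differed by number. Over the 28 tested ligands the median difference was -0.62, with -1.26 at number 2 and -0.05 at number 3. Over the 13 tested receptors it was -0.54, with -1.82 at number 2 and 0.42 at number 3. Of the 22 genes that carry the signal from chemokine receptors, such as G protein subunits, arrestins and Rac2, 16 were lower and 6 higher, none was called and the median difference was -0.24. Of the 11 genes that present or cleave chemokines, 9 were tested, all 9 were lower, none was called and the median difference was -0.68. Mmp8 among them entered the test through WT alone. Mmp9, the gelatinase of neutrophils and macrophages, read -1.84 and -1.40 on the WT arrays, -4.82 on KO 2 and -1.78 on KO 3. The 9 related chemokines and chemokine-binding receptors whose names fall outside the rule, among them Pf4, Ppbp and the scavenging receptors Ackr1 and Ackr2, had 3 lower and 5 higher of 8 tested, none called, with a median difference of 0.09.

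The levels of markers of other heart cell types also differed between the arrays. The 11 cardiomyocyte markers had mean levels of 6.49 and 5.34 on WT 2 and WT 3, 7.49 on KO 2 and 4.52 on KO 3, and summed signals of 1716, 844, 3195 and 579. The 8 endothelial markers had means of 2.33, 2.43, 2.87 and 2.16 in the same order, and the 8 fibroblast markers 5.96, 6.02, 5.12 and 5.89. None of these markers was called. KO 2 thus had the highest cardiomyocyte marker level and the lowest chemokine level of the 4 hearts, and KO 3 the lowest cardiomyocyte marker level. Whether the tissue content differed, and its part in the chemokine differences, was not tested.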

How the data were processed

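Total RNA of 4 left ventricles was labelled with Cy3 and hybridized to 1-colour Agilent arrays by the authors. The deposited scanner files hold, per spot, a processed intensity (background-subtracted by Agilent Feature Extraction 10.7.3.1 per the file headers), mean and background intensities, and flags of other kinds (well above background, saturated, outlier). A table of log2 values that the authors normalized in GeneSpring served as an alternative. Positions are in mm9, as the files give them.

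Of 43379 non-control spots an array, 92 to 116 were left out as outliers, none of them of a chemokine gene, and none was saturated. Spots of 1 probe were averaged to 41174 probes, and the log2 processed intensity was shifted so that the 75th percentile of every array was 0. A probe was tested if well above background on both arrays of a group (28304 probes). KO and WT were compared with lmFit and eBayes of limma 3.58.1 in R 4.3.3, adjusted over all tested probes by Benjamini-Hochberg, at the study's cutoffs of 0.05 and 2-fold. The script was tested on simulated data. Each gene was given by its brightest probe. Shares of all genes use 18449 tested genes at 1 probe each. Named with the level of each array were the neutrophil class, the brightest tested gene of every other class, and each tested gene with groups apart or an absolute difference over 1. The genes, classes and lists were chosen with earlier results of these data known. The values of 1 gene, which the counts include, are not reported here. Likeness to Cxcl5 across arrays was not computed, since 4 arrays are too few for a correlation. Alternatives were normexp with offset 50 (flagged spots kept), quantile normalization, a shift by the median, other filters, the authors' log2 values, the array number as a block, trend and robust estimation, the methods' t-test, the mean of a gene's probes, and leaving out each array.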

Additional observations from a re-analysis of the deposited data

Results flagged for a closer look

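Xist, the RNA that silences the second X chromosome in female cells, gave a signal on arrays whose labels say male. Its unscaled log2 signal was 14.13 on WT 2 and 13.24 on KO 2, beside 1.92 on WT 3 and 2.01 on KO 3, on a measurement that no chemokine comparison uses. The same split separates number 2 from number 3 in every within-number value of the chemokine genes, and sex and any other difference between the numbers cannot be told apart.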

How the results depend on the processing

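No chemokine or receptor gene was called under any alternative. At an unadjusted limma p of 0.05, 3 genes passed as reported, beside 1.59% of all tested genes, and 1 passed with normexp. At an unadjusted p of 0.05 in the methods' t-test, 1 passed. The share of all tested genes that passed was not computed for the alternatives, so their counts cannot be set against it. The array numbers are shared by the groups but are not stated to pair the mice. The deviations of WT 2 and KO 2 from their group means correlated at 0.569 over the tested probes. With the number as a replicate block, 8 genes passed an unadjusted limma p of 0.05 and 0 were called, with the Cxcl5 difference again at -2.69. The Cxcl5 difference kept its sign in all settings, from -3.22 to -2.17 with 1 array left out, and the median over the genes from -1.06 to -0.06. With all 4 arrays, 244 of 247 values of the named genes kept their direction.

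Normexp moved the median of all tested genes to 0.13. It gave 4 genes more than 2-fold lower (11 as reported), 6 with both KO arrays below WT (10) and 2 with both above (1), moved the class medians of the neutrophil genes to -0.75 and of Xcl1 and Xcr1 to -0.17, and turned the mucosal class median to 0.0147. Its differences for dim genes were smaller: -0.019 for Ccl1, -0.13 for Cxcl3, -0.74 for Xcl1 and -0.78 for Cxcr2. Without a filter on dim probes 2 genes had both KO arrays above WT and the neutrophil class median was -0.89, and with only probes above background on all 4 arrays 0 were more than 2-fold higher (1 as reported). Cxcl12 and its class turned to -0.0018 with quantile normalization, -0.0015 with the authors' log2 values and -0.20 with the mean of all probes.

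Leaving out 1 array gave 7 to 21 genes more than 2-fold lower and 1 to 3 more than 2-fold higher. The remaining KO arrays were below the remaining WT arrays for 11 to 29 genes, and above for 1 to 13. Groups separate more easily with fewer arrays, so these last counts cannot be set against those from all arrays. The following differences crossed 0 in these fits. Ccl24 ran from -3.06 to 1.09 and the Ccr3 class from -2.56 to 0.48, above 0 without WT 2. Cxcl10 ran from -0.90 to 0.68, Cxcl9 from -2.14 to 0.0874 and the Cxcr3 class from -1.52 to 0.0196. Cx3cl1 ran from -1.498 to 0.98, its class from -1.57 to 0.77, Cxcl16 from -1.56 to 0.65, its class from -1.94 to 0.58 and the Ccr2 class from -1.13 to 0.0086, all highest without KO 2. Cxcl12, which sets its class, ran from -0.29 to 0.71, Cxcl14, alone in its class, from -0.75 to 0.26, Cxcl13 from -0.96 without KO 3 to 5.72 without KO 2, Ccl27a from -0.44 to 0.19 and the mucosal class from -0.24 to 0.19. A group left with 1 array takes its spread from the other one, and other causes were not tested. Signals near background limit Ccl1, Cxcl3, Cxcr2, Cxcl13, Cxcr5, Ccr7, Ccl11 and Xcl1.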
